A study of Mus musculus with 74 samples.

Results

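In the mouse progenitor line HPC-7, 107 of 55943 listed transcript identifiers stood above every control library in each of the 8 libraries with a cohesin hairpin, by a mean of at least 1.5 times in every knockdown. They were chosen on these values. Counts were expressed as CPM, that is, as shares of a library's assigned counts scaled to a fixed total, leaving out the most counted identifier, ENSMUST00000082390.1. A member averaged at least 2 CPM and at least 1.5 times the control mean in each of the 3 knockdowns, and no knockdown library overlapped a control library. Of 11056 identifiers at the level minimum in all 3 knockdowns, 127 met the fold and 107 also the no-overlap criterion, which is 0.968%.

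HPC-7 is a haematopoietic progenitor line that grows in stem cell factor (SCF). Every RNA-seq library came from cells with an inducible short hairpin RNA, and doxycycline had been given for 72 h in all of them, controls included. Progenitor (HPC) libraries, kept at 100 ng/ul SCF, carried hairpins against Stag2 (n = 3), Rad21 (n = 3), Smc1a (n = 2) or luciferase (Luc, the control, n = 3). The Ery libraries came from cells kept for 48 h in medium with the erythroid growth factor EPO (4 U/l) and 20 ng/ul SCF. They carried the Stag2 (n = 2) or the Luc (n = 2) hairpin. The titles of all HPC RNA-seq libraries also carry the word inhibitor. The Ery titles lack it, and the labels do not explain it. Rad21 and Smc1a knockdown in Ery were not analysed here. The labels do not say how many hairpin constructs or clones stand behind a group, or whether numbered libraries were separate cultures, and the spread behind each p-value is that of the libraries, possibly technical.

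Cohesin is a ring-shaped protein complex. Smc1a, Smc3 and Rad21 form the ring, and Stag1 or Stag2 binds to it. The ring holds sister chromatids together until cell division, and in interphase it extrudes DNA loops that the zinc finger protein Ctcf anchors, bringing promoters near distant regulatory elements. Genes of the complex are recurrently mutated in human myeloid malignancies. The reference tables used here pair gene identifiers, not transcript identifiers, with symbols (0 of 107 members matched). Members are therefore given by identifier and no role is given to any of them. The hairpins' own targets and the markers of progenitor and erythroid cells were not checked here for the same reason.

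Assigned counts ran from 22288469 to 33355332 per library, and ENSMUST00000082390.1 took 25.8% to 33.6% of them. In HPC its share was 25.8% to 33.2% in shStag2, 27.1% to 33.4% in shRad21, 31.2% to 32.5% in shSmc1a and 30.5% to 33.6% in Luc. With it counted in the total, 106 identifiers met the rule, of which 83 were among the 107. Libraries numbered 3 of HPC, together with those of shSmc1a, stood apart from the other HPC libraries on the first principal component, with coordinates of 17.2 to 24.5 against -28.7 to 4.96. Among the other libraries, Luc 1 and 2 lay at 4.96 and -8.63, and libraries 1 and 2 of shStag2 and shRad21 at -28.7 to -24.9. Libraries 1 and 2 were thus not alike on this component. The labels name no difference between the libraries numbered 3 with shSmc1a and the other HPC libraries.

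Most members differed by a modest factor. The smallest of the 3 knockdown over Luc ratios of mean CPM ran from 1.502 to 4.82 with a median of 1.72. It reached 2 in 22 members and 3 in 5. Median ratios over all members were 1.83 in shStag2, 2.04 in shRad21 and 1.91 in shSmc1a. As the ratios chose the members, they are given without a test. In such bulk libraries a change in the share of cells of a type and a change in RNA per cell cannot be told apart. Mean CPM in Luc ran from 0.651 to 241, with a median of 4.60, and no member was at 0 in any HPC library. At the low end precision was limited, since 34 members had under 50 counts in every HPC Luc library and the lowest count was 5.

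**Figure D1:**
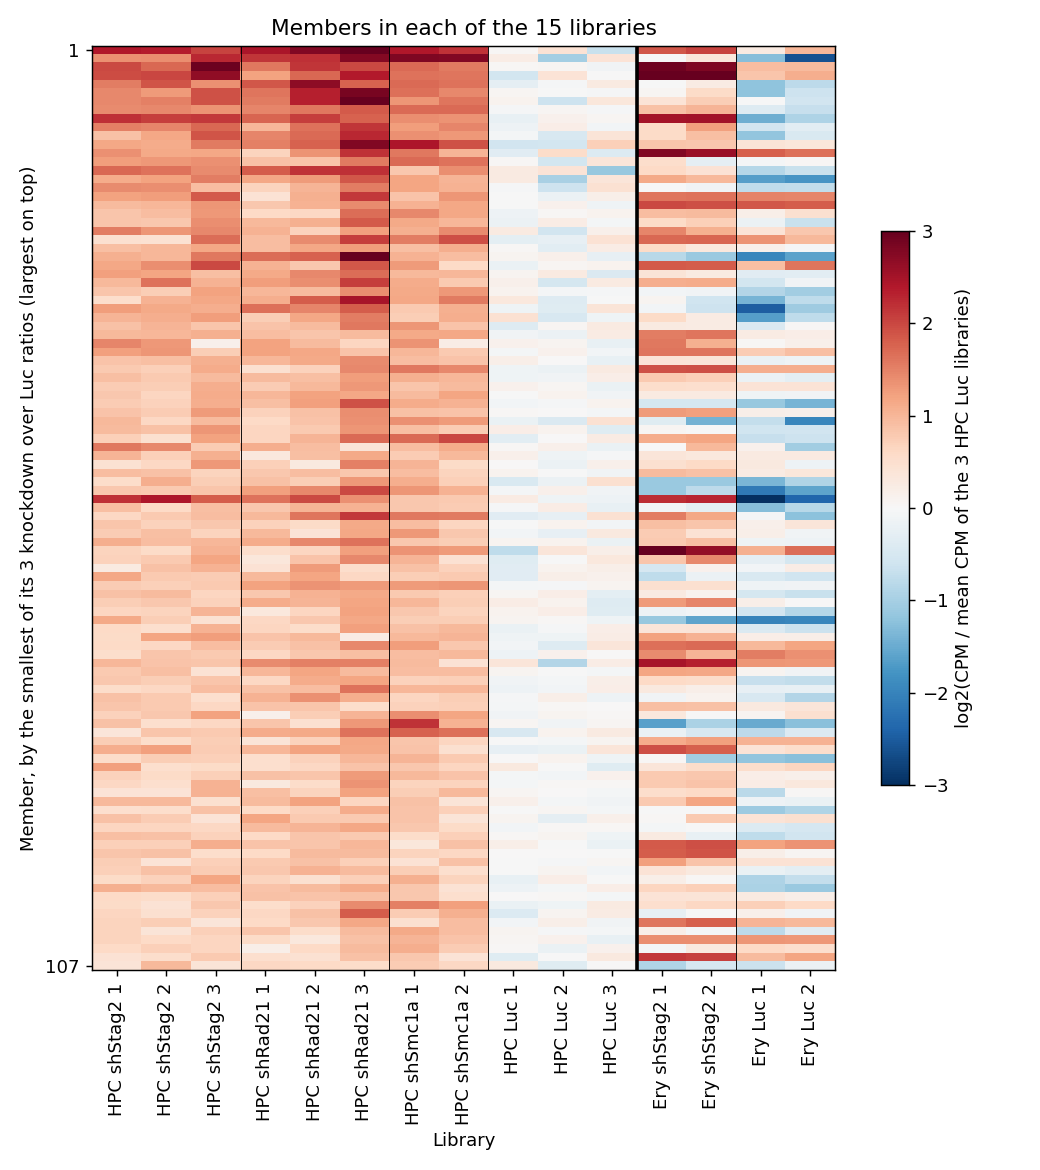
Level of each of the 107 members (rows) in each of the 15 libraries (columns) as log2 of CPM over the mean of the 3 HPC Luc libraries, with colours limited to the range from -3 to 3. All 8 HPC knockdown columns are above 0 in every row, as the choice required, while both Ery Luc columns hold members above and below the HPC Luc level.

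ENSMUST00000149154.6 had the largest smallest ratio, 4.82. HPC shStag2 libraries held 5.29, 5.08 and 4.06 CPM, shRad21 libraries 5.45, 6.82 and 7.89 and shSmc1a libraries 5.29 and 4.49, against 1.02, 1.35 and 0.626 in Luc libraries. Every shRad21 library was above every library of the other knockdowns. ENSMUST00000037615.6 had few counts. By library, CPM was 1.70, 1.72 and 3.12 in HPC shStag2, 2.89, 2.99 and 4.38 in shRad21 and 4.55 and 4.49 in shSmc1a, against 0.765, 0.321 and 0.866 in Luc. Its shSmc1a libraries were the highest and its shStag2 libraries 1 and 2 the lowest of the knockdowns.

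ENSMUST00000100070.2 was also well separated. It had 13.1, 11.1 and 25.8 CPM in HPC shStag2, 9.96, 14.9 and 13.2 in shRad21 and 10.9 and 9.81 in shSmc1a, against 3.44, 3.47 and 3.13 in Luc. The shStag2 library numbered 3 was the highest of all HPC libraries, which gave a mean of 16.7 ± 7.96 CPM in shStag2 (SD, n = 3) against 3.35 ± 0.19 in Luc (n = 3). In ENSMUST00000058755.3 the order of the groups was the same. HPC shStag2 libraries held 4.74, 4.83 and 7.62 CPM, shRad21 libraries 2.78, 4.00 and 6.33 and shSmc1a libraries 3.76 and 3.67, against 0.828, 1.61 and 1.20 in Luc libraries. The libraries numbered 3 were the highest of shStag2 and of shRad21. ENSMUST00000034643.10 completes the 5 members above a smallest ratio of 3. By library, CPM was 2.69, 3.40 and 2.37 in HPC shStag2, 3.34, 5.89 and 3.17 in shRad21 and 3.02 and 2.85 in shSmc1a, against 0.765, 0.899 and 1.11 in Luc. Apart from shRad21 library 2 its knockdown libraries lay close together.

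The members with the most reads were not those with the largest ratios. CPM is not divided by transcript length, so read shares of different transcripts do not rank their abundance. ENSMUST00000170794.6, with the highest mean over the 8 knockdown libraries, had a smallest ratio of 1.58. It had 352, 327 and 361 CPM in HPC shStag2, 405, 392 and 531 in shRad21 and 429.7 and 399 in shSmc1a, against 209.8, 207 and 240.2 in Luc. Each shRad21 library was above each shStag2 library. ENSMUST00000020522.8 had a ratio of 1.52 in shRad21 and 1.91 in shSmc1a. HPC shStag2 libraries held 385, 366 and 378 CPM, shRad21 libraries 358, 299 and 443 and shSmc1a libraries 490.4 and 434, against 251, 265 and 208 in Luc libraries. Its lowest knockdown library, shRad21 number 2, was the closest to the Luc libraries. ENSMUST00000038845.9 was near 2-fold in every knockdown, with ratios of 1.98, 2.03 and 1.82 in shStag2, shRad21 and shSmc1a. By library, CPM was 357, 333 and 477 in HPC shStag2, 319, 362 and 517 in shRad21 and 360.1 and 354 in shSmc1a, against 203, 198 and 189 in Luc. ENSMUST00000021880.9 was higher in shSmc1a than in the other knockdowns, with ratios of 1.84, 1.91 and 2.86. It had 252, 244 and 318 CPM in HPC shStag2, 206, 237 and 399 in shRad21 and 442 and 399.7 in shSmc1a, against 134, 131 and 176 in Luc. Library 3 was the highest of its group in shStag2, shRad21 and Luc alike.

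The knockdowns were highest in unequal numbers of members. The shRad21 mean was the highest of the 3 in 61 members, the shSmc1a mean in 27 and the shStag2 mean in 19. The highest knockdown mean was 1.01 to 2.58 times the lowest, with a median of 1.24, and reached 1.5 times in 24 members and 2 times in 7. These orders come from the libraries that chose the members and were not tested. The largest difference was that of ENSMUST00000060050.5. HPC shStag2 libraries held 6.34, 7.53 and 4.93 CPM, shRad21 libraries 4.34, 5.51 and 3.64 and shSmc1a libraries 2.45 and 2.404, against 1.66, 1.28 and 1.25 in Luc libraries. Its ratios to Luc were 4.48 in shStag2, 3.22 in shRad21 and 1.74 in shSmc1a, and the 3 knockdowns did not overlap except that shStag2 library 3 lay within the shRad21 range. ENSMUST00000036618.12 came next. By library, CPM was 37.2, 35.5 and 53.1 in HPC shStag2, 56.7, 60.3 and 143 in shRad21 and 36.5 and 33.7 in shSmc1a, against 18.7, 19.6 and 14.8 in Luc. There shRad21 library 3 alone exceeded the other shRad21 libraries more than 2 times, so that the shRad21 mean was 86.8 ± 49.0 CPM (SD, n = 3) against 17.7 ± 2.53 in Luc (n = 3). At the other extreme, ENSMUST00000107094.1 had ratios of 2.14, 2.16 and 2.15 in shStag2, shRad21 and shSmc1a.

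The shRad21 levels of the members differed between the library sets. In shRad21, 89 of 107 members were higher in library 3 than in the mean of libraries 1 and 2, with a median ratio of 1.35. Over 11518 transcripts of 2 CPM or more in HPC, 44.9% were higher and the median was 0.979. In shStag2 67 members were higher, against 37.1% of those transcripts, with a median of 1.08 against 0.951. In Luc 56 members were higher, against 45.3%, with a median of 1.03 against 0.983. The part of this library set in the order of the knockdowns was not tested. Within libraries 1 and 2, the median ratio to Luc over members was 1.80 in shStag2 and 1.98 in shRad21, and 94 members reached 1.5 in both, against 2.13% of the transcripts at the level minimum. Within the other set, with 1 library each of shStag2, shRad21 and Luc, the medians were 1.87 in shStag2, 2.37 in shRad21 and 1.92 in shSmc1a, and 76 members reached 1.5 in all 3, against 1.73%. In 64 members every knockdown reached 1.5 in both sets. The same values chose the members, so nothing is read from these counts.

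The limit of 1.5-fold cut through a continuous range. ENSMUST00000051153.5 was the member just inside, with a smallest ratio of 1.502. It had 2.34, 3.52 and 2.37 CPM in HPC shStag2, 2.78, 2.74 and 2.63 in shRad21 and 3.07 and 2.78 in shSmc1a, against 2.23, 1.41 and 1.78 in Luc. ENSMUST00000026999.8 was next inside, at 1.505. Just outside stood ENSMUST00000033919.4, at 1.49999, with means of 10.8 CPM in shStag2, 12.9 in shRad21 and 10.7 in shSmc1a against 7.11 in Luc, and then ENSMUST00000032217.1, at 1.499. In all, 607 identifiers met the level and no-overlap criteria without the fold. Leaving out Luc library 3 raised the number that met the whole rule to 161, of which 100 were among the 107.

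**Figure D2:**
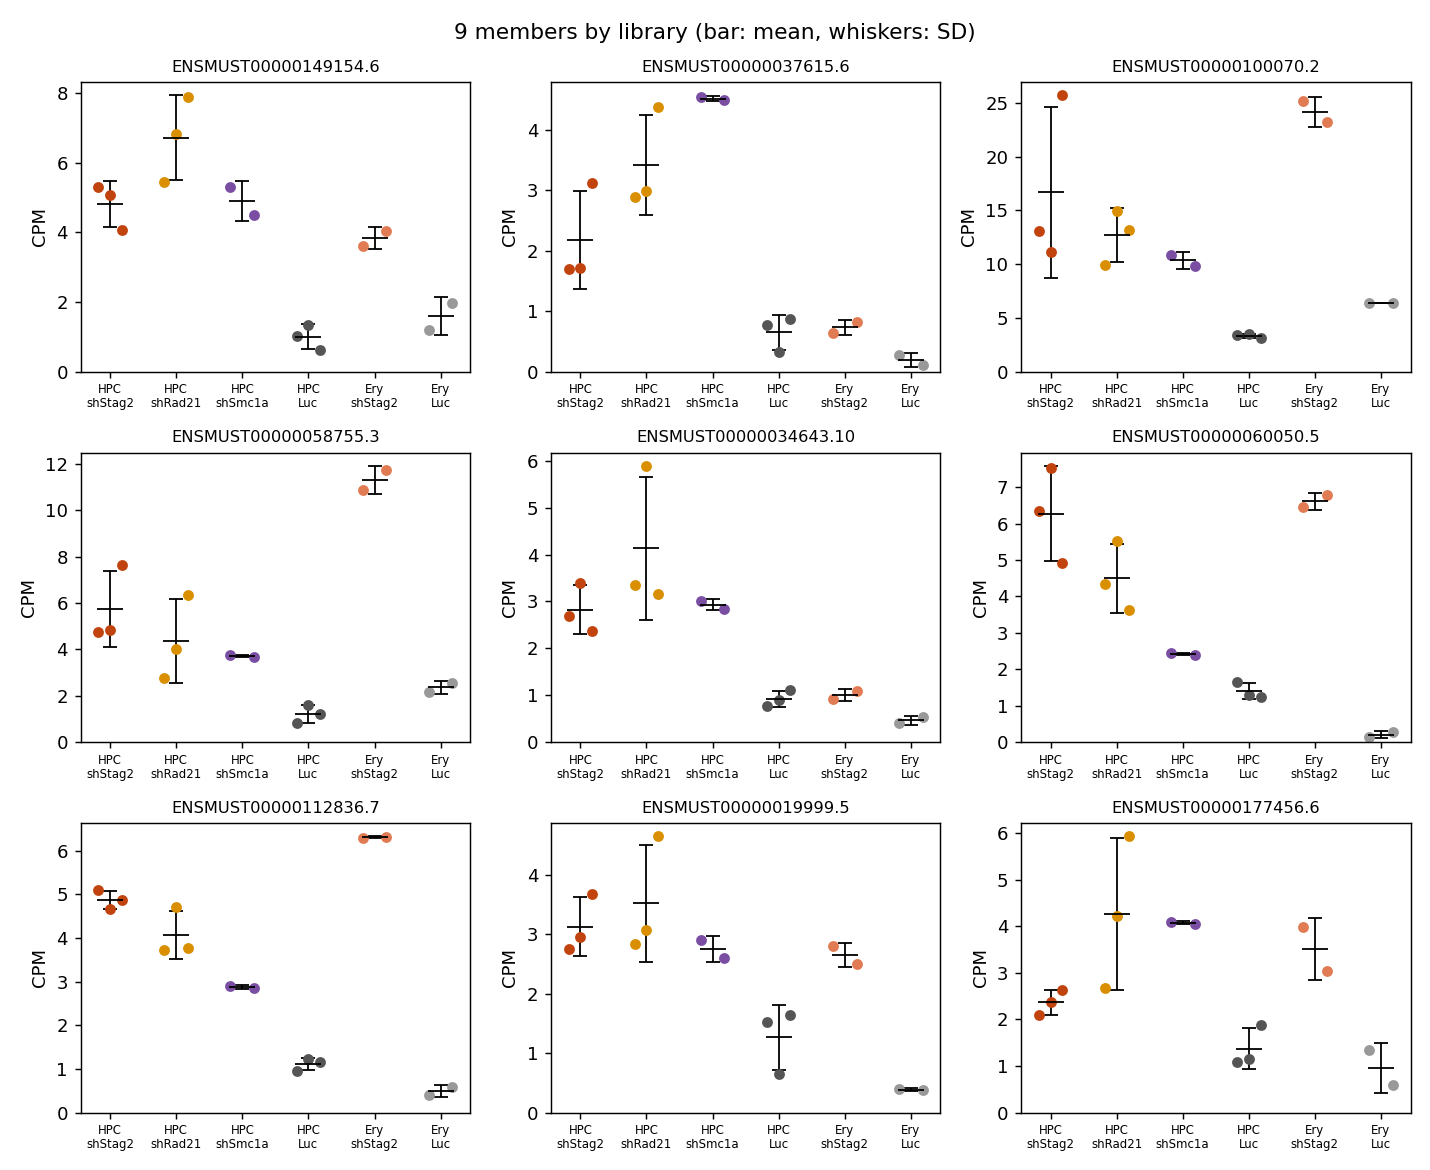
CPM of 9 members in every library of 6 groups (points), with the mean (bar) and SD (whiskers), for the 5 with the largest smallest ratio and 4 others with a large Ery change. In each panel the HPC knockdown points lie above the HPC Luc points and both Ery shStag2 points above both Ery Luc points.

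The Ery libraries took no part in the choice, and the comparison within them asks whether these transcripts also differed with the Stag2 hairpin after EPO. In edgeR's quasi-likelihood test, fitted on 18065 transcripts and adjusted over all of them by the Benjamini-Hochberg method, 56 of 107 members (52.3%) were higher in Ery shStag2 than in Ery Luc at an adjusted p under 0.05, against 3.99% of all transcripts tested. Of the 11056 transcripts at the level minimum of the rule, 5.74% were higher and 4.61% lower. No member (0) was lower by edgeR at an adjusted p under 0.05, against 3.7% of all transcripts tested. By DESeq2 the number was also 0, against 629 of 30033 transcripts. At an unadjusted p under 0.05 by edgeR it was 0 as well, where 3632 of 18065 transcripts passed in either direction.

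The median log2 fold change of the members in Ery was 0.73, against -0.02 over all transcripts tested. The fold change was above 0 in 99 members and below 0 in 8. Both Ery shStag2 libraries exceeded both Ery Luc libraries in CPM in 91 members and were below both in 1, where 23.6% of all transcripts tested, and 26.2% of those at the level minimum, had both shStag2 libraries higher. With 1 of the 4 Ery libraries left out, fewer members were called, as were fewer of all transcripts tested. The members' median log2 fold change was then 0.68 to 0.79. The fits without a library assume that the lone library varies like those of the other groups.

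**Figure D3:**
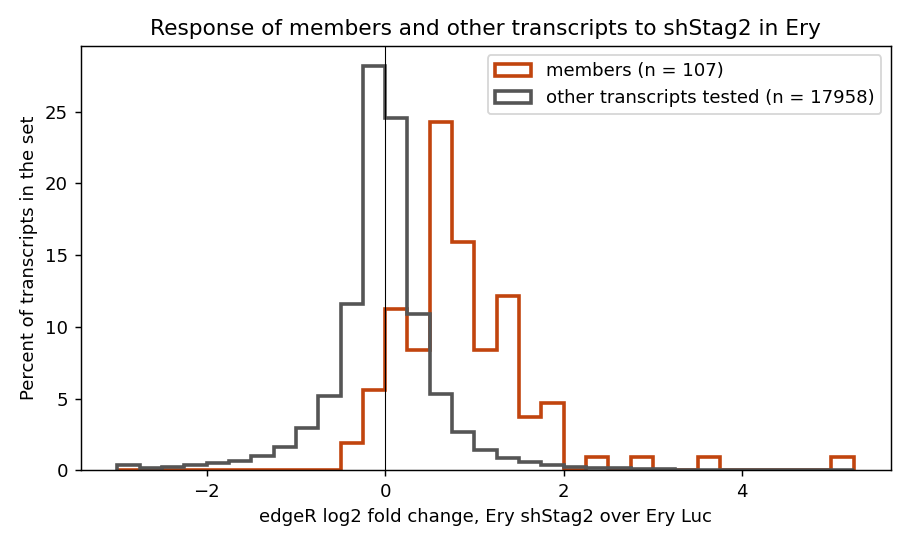
Distribution of edgeR log2 fold changes of Ery shStag2 over Ery Luc for the 107 members and for the other transcripts tested, as percent of each set in steps of 0.25; values beyond the axis are drawn in the end steps. The members centre near 0.73 and the others near 0, and the members below 0 number 8.

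The largest change in Ery was that of ENSMUST00000060050.5, the member that also differed most between the knockdowns. In Ery shStag2 ENSMUST00000060050.5 stood at 6.45 and 6.78 CPM, against 0.134 and 0.267 in Ery Luc. It was barely counted in Ery Luc, with 3 and 5 counts, against 120 and 149 in Ery shStag2. The ratio of pooled CPM was 34.0, with a 95% exact interval of 17.0 to 79.6 that covers counting error only. By edgeR the log2 fold change was 5.06 (SE 0.35, adjusted p = 3.5e-08). The test reports no SE. Each SE given here is the absolute log2 fold change over the square root of the test's F statistic. For this transcript it is smaller than counting error alone, so it overstates the precision. As counts in Ery Luc were so few, the size of the fitted value depends on the prior count. ENSMUST00000112836.7 behaved likewise. The levels of ENSMUST00000112836.7 were 6.29 and 6.32 CPM in Ery shStag2 and 0.403 and 0.588 in Ery Luc. This was a log2 fold change of 3.70 in edgeR's test (SE 0.25, adjusted p = 3.05e-08). Ery Luc held 9 and 11 counts, and this SE too is smaller than counting error. In HPC it was 4.39, 3.67 and 2.59 times the Luc mean in shStag2, shRad21 and shSmc1a.

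Further members with large changes had lower levels in Ery Luc than in HPC Luc. ENSMUST00000019999.5 had 2.80 and 2.50 CPM in Ery shStag2, against 0.403 and 0.374 in Ery Luc. The edgeR fit gave a log2 fold change of 2.76 (SE 0.42, adjusted p = 0.000302). Its Ery shStag2 mean was 0.848 times that in HPC shStag2, which was 3.12 ± 0.49 CPM (SD, n = 3). In Ery shStag2 ENSMUST00000035813.7 stood at 16.5 and 17.4 CPM, against 4.79 and 5.02 in Ery Luc. edgeR's log2 fold change was 1.81 (SE 0.30, adjusted p = 0.00057). In HPC the same transcript was highest with shSmc1a, at 28.0 ± 4.29 CPM (n = 2) against 7.68 ± 1.46 in Luc (n = 3). The levels of ENSMUST00000177456.6 were 3.98 and 3.05 CPM in Ery shStag2 and 1.34 and 0.588 in Ery Luc. By edgeR the log2 fold change was 1.84 (SE 0.39, adjusted p = 0.0051). This call was lost without shStag2 library 1 or Luc library 2, and the Ery Luc libraries differed from each other more than 2 times.

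In other members the Ery Luc level was above that in HPC Luc. ENSMUST00000058755.3 had 10.9 and 11.7 CPM in Ery shStag2, against 2.15 and 2.56 in Ery Luc. This was a log2 fold change of 2.29 in edgeR's test (SE 0.31, adjusted p = 8.16e-05). Its Ery shStag2 level exceeded that of every HPC library. In Ery shStag2 ENSMUST00000100070.2 stood at 25.2 and 23.2 CPM, against 6.40 and 6.41 in Ery Luc. The edgeR fit gave a log2 fold change of 1.94 (SE 0.29, adjusted p = 0.000253). Of the HPC libraries only shStag2 library 3 was as high. The levels of ENSMUST00000109475.2 were 22.7 and 23.9 CPM in Ery shStag2 and 7.29 and 6.68 in Ery Luc. edgeR's log2 fold change was 1.75 (SE 0.14, adjusted p = 1.82e-07). In HPC this transcript was just 1.68, 1.79 and 1.55 times the Luc mean in shStag2, shRad21 and shSmc1a.

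Of the most counted members, 3 of 4 passed the test in Ery. ENSMUST00000038845.9 had 476 and 459 CPM in Ery shStag2, against 224 and 219 in Ery Luc. By edgeR the log2 fold change was 1.10 (SE 0.18, adjusted p = 0.000504). In Ery shStag2 ENSMUST00000170794.6 stood at 376 and 381 CPM, against 251 and 243 in Ery Luc. This was a log2 fold change of 0.64 in edgeR's test (SE 0.12, adjusted p = 0.00185). Both groups had replicates within a few percent of each other in these transcripts. The levels of ENSMUST00000021880.9 were 551 and 564 CPM in Ery shStag2 and 313 and 313 in Ery Luc. The edgeR fit gave a log2 fold change of 0.86 (SE 0.22, adjusted p = 0.0204). That call was lost with DESeq2 and without any single Ery library. ENSMUST00000020522.8 had 636 and 632 CPM in Ery shStag2, against 601 and 592 in Ery Luc. edgeR's log2 fold change was 0.11 (SE 0.13, adjusted p = 0.714). The Ery groups did not overlap in this transcript, and the test did not pass. It passed only in the edgeR fit of the 4 Ery libraries alone (adjusted p = 4.3e-05).

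Among the 5 members with the largest smallest ratio, ENSMUST00000149154.6 passed as well. In Ery shStag2 ENSMUST00000149154.6 stood at 3.60 and 4.05 CPM, against 1.21 and 1.98 in Ery Luc. By edgeR the log2 fold change was 1.30 (SE 0.28, adjusted p = 0.0058). It did not pass without shStag2 library 2 or Luc library 1. ENSMUST00000037615.6 and ENSMUST00000034643.10 were scarce in Ery. The levels of ENSMUST00000037615.6 were 0.645 and 0.819 CPM in Ery shStag2 and 0.269 and 0.107 in Ery Luc. This was a log2 fold change of 1.91 in edgeR's test (SE 0.63, adjusted p = 0.0777). Pooled, that was 30 counts in Ery shStag2 and 8 in Ery Luc, and the ratio of pooled CPM of 3.80 had a 95% exact interval of 1.70 to 9.58 for counting error only. Replicates of the Ery groups differed by more than counting error (chi-square over its degrees of freedom 2.21 in shStag2 and 2.53 in Luc), so that interval is too narrow for a difference between the groups. The test passed for this transcript with DESeq2. By edgeR it passed in the fit of the 4 Ery libraries alone (adjusted p = 0.0189) and with a block for the library number. It passed too without the filter on low counts and without the HPC libraries numbered 3 and shSmc1a. ENSMUST00000034643.10 had 0.914 and 1.09 CPM in Ery shStag2, against 0.403 and 0.534 in Ery Luc. The edgeR fit gave a log2 fold change of 1.13 (SE 0.44, adjusted p = 0.138). Both transcripts had nonoverlapping groups in Ery.

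The 56 members that passed had log2 fold changes of 0.44 to 5.06, with a median of 1.08, and 32 of them were at 1 or more. The 51 that did not pass ran from -0.39 to 1.91, with a median of 0.47, and 43 of them were above 0. Median CPM in Ery Luc was 5.92 in the members that passed and 3.67 in those that did not. By level in Ery Luc, 27 of 56 members under 5 CPM passed, 16 of 27 from 5 to 20 CPM and 13 of 24 at 20 CPM or more. Of the 22 members at 2-fold or more in all 3 HPC knockdowns 10 passed, and of the other 85, 46.

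The shStag2 response of the members was set side by side in both stages, which also differ by the title word inhibitor. The ratio of mean CPM had a median of 1.63 in Ery, where it did not choose the members, and of 1.83 in HPC, where it did, and was larger in Ery in 37 members and smaller in 70. Across the 107 members the log2 ratio in HPC and the log2 fold change in Ery had Pearson's r of 0.59 and Spearman's rho of 0.45. These describe transcripts read in the same libraries, which are not independent replicates. The choice cut the HPC ratios off at 1.5, and no coefficient over all transcripts is given. Pearson's r includes ENSMUST00000060050.5, whose Ery Luc level rests on 3 and 5 counts.

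**Figure D4:**
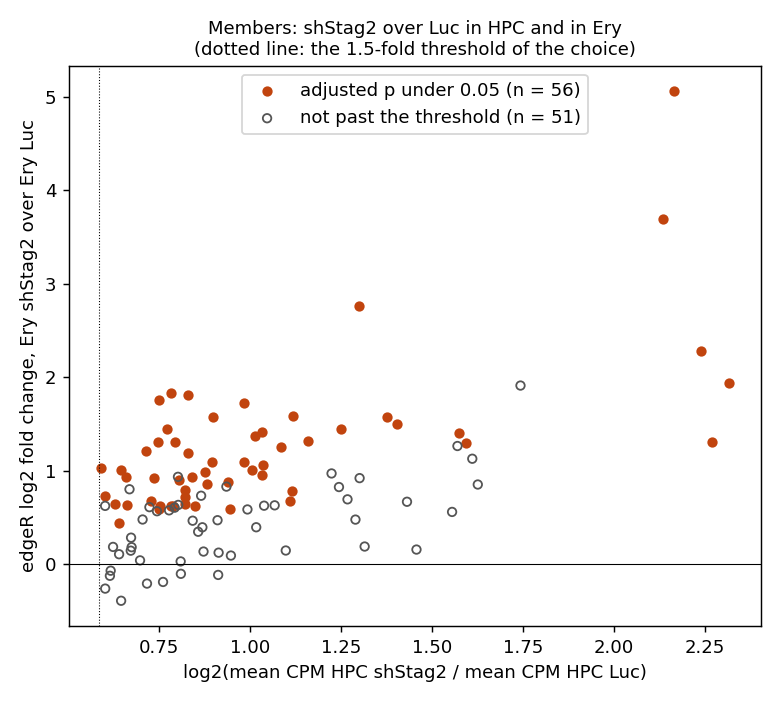
Each point is a member, with log2 of the shStag2 over Luc ratio of mean CPM in HPC (x axis) and the edgeR log2 fold change in Ery (y axis); filled points passed the test in Ery. Filled points number 56, and the highest point, ENSMUST00000060050.5, is at 5.06 on the y axis.

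In control cells the members did not share a direction between the stages. Mean CPM was lower in Ery Luc than in HPC Luc in 59 members and higher in 48, with a median ratio of 0.891 and a range from 0.144 to 3.57. Over 9862 transcripts of 2 CPM or more in every group the median ratio was 0.981, with 53.4% lower. TMM scaling moved it to 1.06 (9958 transcripts) and the members' median to 0.970, with 55 members lower and 52 higher and 40.7% of all such transcripts lower, so the direction of a member near 1 depends on the scaling. In 33 members Ery Luc was at least 1.5-fold lower and in 22 at least 1.5-fold higher, against 18.3% and 5.18% of the transcripts at the level minimum. Ery Luc lay wholly below HPC Luc in 42 members and wholly above in 37, against 39% and 27.7%. The HPC Luc libraries helped to choose the members, so no test was made and nothing is read from these shares. Stage also goes with the word inhibitor in the titles of the HPC libraries, which the Ery titles lack and the labels do not explain, so the stages cannot be told apart from it.

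ENSMUST00000107094.1 was the member with the highest ratio of Ery Luc to HPC Luc, 3.57. In Ery shStag2 ENSMUST00000107094.1 stood at 115 and 111 CPM, against 105 and 102 in Ery Luc. edgeR's log2 fold change was 0.15 (SE 0.15, adjusted p = 0.659). It passed only in the edgeR fit of the 4 Ery libraries alone (adjusted p = 0.00211). In HPC its levels had averaged 62.0 ± 9.02 CPM in shStag2 (SD, n = 3) and 29.0 ± 2.72 in Luc (n = 3). ENSMUST00000166920.7 followed with a ratio of 3.31. The levels of ENSMUST00000166920.7 were 10.5 and 9.23 CPM in Ery shStag2 and 5.37 and 4.81 in Ery Luc. By edgeR the log2 fold change was 0.97 (SE 0.31, adjusted p = 0.0603). This transcript passed in the edgeR fit of the 4 Ery libraries alone (adjusted p = 5.3e-08) and with a block for the library number (adjusted p = 0.0114). It passed too without the filter on low counts and without the HPC libraries numbered 3 and shSmc1a. It did not pass with DESeq2. Both Ery groups exceeded the HPC Luc libraries, which held 1.21, 2.25 and 1.16 CPM.

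At the low end, beside ENSMUST00000060050.5 at 0.144, stood ENSMUST00000154038.3 at 0.254. ENSMUST00000154038.3 had 1.77 and 1.32 CPM in Ery shStag2, against 0.985 and 1.01 in Ery Luc. This was a log2 fold change of 0.64 in edgeR's test (SE 0.32, adjusted p = 0.281). All 4 Ery libraries lay below its HPC Luc libraries, at 4.14, 4.05 and 3.61 CPM. ENSMUST00000036618.12, the member with the large spread in shRad21, was also low in Ery. In Ery shStag2 ENSMUST00000036618.12 stood at 9.95 and 8.19 CPM, against 4.56 and 5.82 in Ery Luc. The edgeR fit gave a log2 fold change of 0.83 (SE 0.42, adjusted p = 0.289). This transcript passed in the edgeR fit of the 4 Ery libraries alone (adjusted p = 7.5e-06). It also passed without the filter on low counts and without the HPC libraries numbered 3 and shSmc1a. It did not pass with DESeq2 or with a block for the library number. Of the members nearest the limit of the choice, ENSMUST00000026999.8 rose in Ery and ENSMUST00000051153.5 did not pass. The levels of ENSMUST00000026999.8 were 56.3 and 53.8 CPM in Ery shStag2 and 25.2 and 29.5 in Ery Luc. edgeR's log2 fold change was 1.03 (SE 0.18, adjusted p = 0.000903). ENSMUST00000051153.5 had 0.968 and 1.27 CPM in Ery shStag2, against 1.16 and 1.60 in Ery Luc. By edgeR the log2 fold change was -0.26 (SE 0.32, adjusted p = 0.729). Each direction of the stage was found among members that passed the test in Ery. The test passed in 17 of the 33 members at least 1.5-fold lower in Ery Luc, in 10 of the 22 at least 1.5-fold higher and in 29 of the 52 between.

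**Figure D5:**
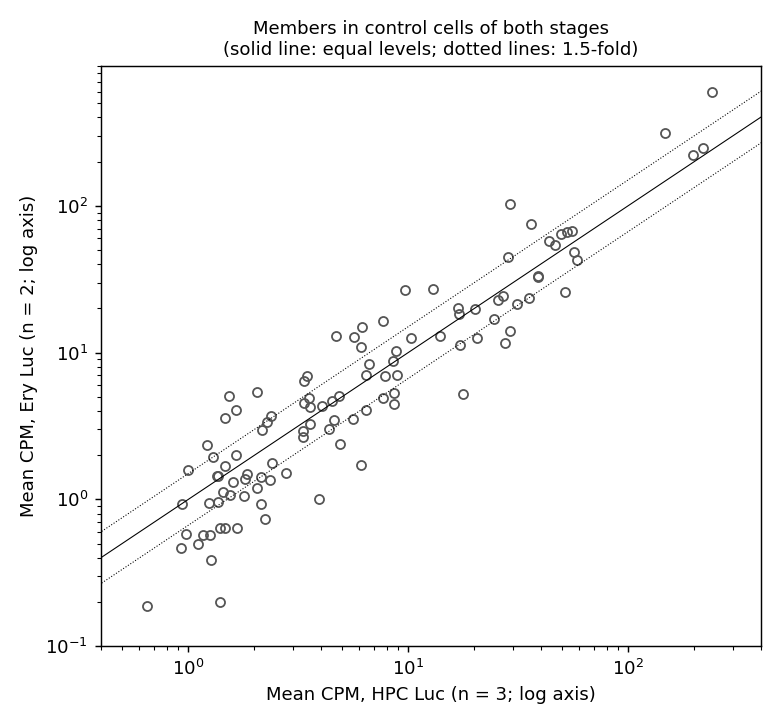
Mean CPM of the 107 members in HPC Luc (x axis) and in Ery Luc (y axis), both on log axes, with lines at equal levels and at 1.5-fold. Points lie on both sides of the line of equal levels, with 59 below it and 48 above.

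Against the progenitor control, Ery shStag2 levels had a median ratio of 1.49 over members and 0.962 over 9862 transcripts of 2 CPM or more in every group, and both Ery shStag2 libraries exceeded every HPC Luc library in 70 members, against 25.4% of the transcripts at the level minimum. Compared with HPC shStag2, members had a median ratio of 0.796 in Ery shStag2, with 69 lower and 38 higher. Over the 9862 transcripts of 2 CPM or more in every group that median was 0.935, with 60.8% lower. Under TMM scaling the members' median was 0.907, with 61 lower and 46 higher, and that of all such transcripts 1.06, with 41.3% lower. Both Ery Luc libraries were below every HPC knockdown library in 81 members, against 35.3% of the transcripts at the level minimum. These counts use libraries that chose the members and are descriptions.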

How the data were processed

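RNA-seq counts per transcript identifier were deposited for each of 15 libraries. Per the submitters' processing notes, STAR 2.4.0 and HTSeq were used with the mouse build mm10. For the annotation, strand setting and treatment of shared reads, nothing is stated in those notes or in the labels. Isoforms, paralogs and overlapping transcripts may share or lose reads. The last 5 lines of each table, which hold unassigned reads, stayed out of totals and tests. Reads without a feature came to 9.19% to 18.0% and ambiguous reads to 24.2% to 26.9%, each of all counts a table lists, those last lines included. Replicates differed by more than counting noise (chi-square per degree of freedom 2.21 to 38.8), and none were merged.

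The members and lists were chosen with earlier results of these data known. Transcripts were tested with edgeR 4.0.16 in R 4.3.3 (TMM, filterByExpr, quasi-likelihood, all 15 libraries with a mean per group, Benjamini-Hochberg threshold 0.05). All 107 members passed the filter. DESeq2 1.42.0 was an alternative. The code was tested on simulated data. Named transcripts are the 5 with the largest smallest ratio, the 4 with the highest CPM, up to 8 with the largest change in Ery among those that passed, and 2 each at the ends of the stage ratio, inside and outside the fold limit, and with the largest spread between knockdowns. Gene lists and promoter contact files were not used here.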

Additional observations from a re-analysis of the deposited data

How the results depend on the processing

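For Ery shStag2 against Ery Luc, 1388 transcripts were called over all libraries, against 3701 in a fit of the 4 Ery libraries alone and 660 to 678 with 1 Ery library left out. Leaving out the HPC libraries numbered 3 and shSmc1a, an alternative chosen after seeing the data, gave 3069. The cause was not tested. Members called higher numbered 56, 32 to 35 with 1 Ery library left out, and 54 to 82 under the other alternatives, and no member was called lower under any of them. The members' median log2 fold change stayed between 0.68 and 0.79. A replicate block gave 2360 transcripts and 72 members. Deviations of same-numbered libraries had a correlation of -0.00306 between the Ery groups, a single value since each has 2 libraries, and of 0.112 to 0.324 between HPC shStag2 and shRad21. The labels give the numbers no meaning, and the Ery libraries compared were not taken as paired. The rule found 107 members, against 69 at a minimum of 5 CPM, 22 at a fold of 2, and 95 to 161 with 1 HPC library left out, the highest without Luc library 3. The 2 stricter settings give fewer by construction. With CPM scaled by TMM the rule found 90, all of them among the 107. It found 130 at a minimum of 1 CPM and 127 without the no-overlap criterion, more by construction. For the 21 named transcripts, 187 of 210 values kept their side of the threshold, 9 no longer passed and 14 newly passed, and none changed sign. Depth limits the 17 members under 1 CPM in Ery Luc.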
